A study of Mus musculus with 39 samples.

Results

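Leukaemic bone marrow of mice that received AE9a cells with added miR-126 was compared between the first and the second passage through recipient mice. The comparison rests on 6 of the series' 39 arrays, 3 mice at passage 1 and 3 mice at passage 2, chosen by the arm and passage in the sample titles. The series holds 3 leukaemia arms, AE9a alone, AE9a with added miR-126 (AE9a+miR-126) and AE9a in miR-126 knockout cells (miR-126KO+AE9a), each with 3 mice at each of 4 passages, and 3 normal controls of the first passage. In all groups the cells were donor cells bearing CD45.1, sorted by flow cytometry from the whole marrow of transplanted mice taken at the end stage. Both groups compared here carry AE9a and the added miR-126, and they differ in passage alone as far as the labels say. The labels give no promoter or vector for the fusion or for miR-126, no age, and no donor for any recipient. Each p-value for a gene thus reflects only variation among recipient mice, with the spread pooled over all 13 groups of the series. The gate keeps donor cells of any blood type, and in such bulk samples fewer cells of a type and less RNA per cell cannot be told apart.

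AE9a is a truncated splice form of AML1-ETO, the fusion protein made by the t(8;21) translocation of acute myeloid leukaemia, and it causes leukaemia in mice by itself. miR-126 lies in an intron of Egfl7, is abundant in endothelium and blood stem cells, and represses signalling genes through sites in their messenger RNAs that pair with its seed. Serial transplantation selects for cells that can start the disease again in a new host, so the leukaemia of a later passage may hold another mix of immature and mature cells. The added microRNA is shown by its mature form from RefSeq (GRCm38.p6, chr2:26591402-26591423, plus strand), with the seed, bases 2 to 8, in capitals, because the seed defines which messages it can pair with.
mmu-miR-126a-3p: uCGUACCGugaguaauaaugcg

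The arrays are described first, since they differed in ways that touch every result. Values are RMA log2 expression, so a difference of 1 is 2-fold. The SD of the log2 values over the 27037 probe sets was 2.03, 1.98 and 1.99 in the 3 passage 1 mice and 1.66, 1.78 and 1.93 in the 3 passage 2 mice, replicates 1 to 3 in that order. All 3 passage 2 arrays lay below all 3 of passage 1, and replicate 3 of passage 2 lay nearest to them. An exact two-sided permutation test gave p = 0.1 for this difference, the smallest p that 3 against 3 allows. Over the whole series 8 of 39 arrays had an SD under 1.8, among them replicates 1 and 2 at passage 2 of the arm studied here. In these 2 arrays dim genes read higher and bright genes lower than at passage 1. With the genes put into 10 classes of equal size by mean level, the median difference over class 9, the second brightest, from the passage 1 mean was -0.85, -0.54 and -0.18 in replicates 1, 2 and 3 of passage 2. Over class 2, the second dimmest, it was 0.41, 0.26 and 0.11. What part of any change below comes with this narrower spread was not tested, so counts are also given from replicate 3 of passage 2 alone (all arrays with an SD under 1.8 left out) and from a fit with each array's SD as a covariate. Replicate 3 alone has no spread of its own, so that fit takes its error from the other groups and assumes that this mouse varied as theirs did.

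**Figure D1:**
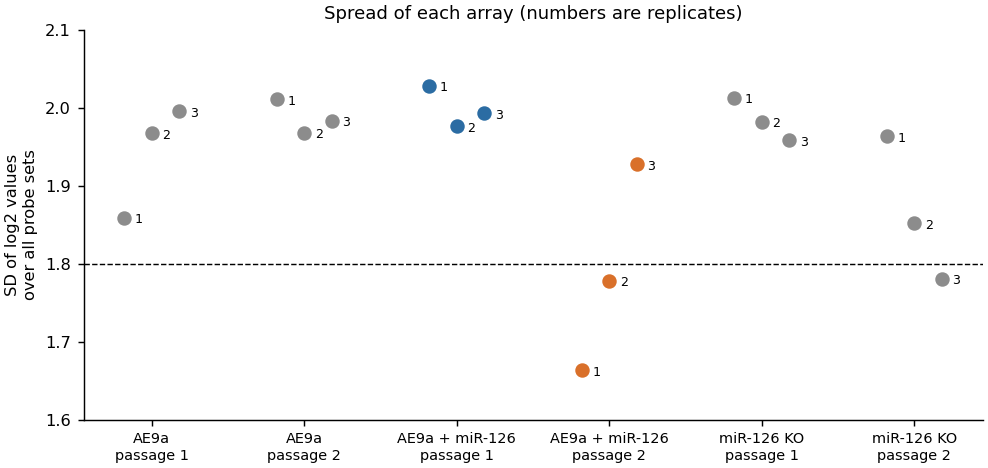
SD of the log2 values over all probe sets (vertical axis, which starts at 1.6) for each array of the 3 arms at passages 1 and 2, with the replicate number beside each point; the dashed line marks 1.8. The passage 2 mice with added miR-126 (orange) sit at 1.66, 1.78 and 1.93, below the 1.98 to 2.03 of passage 1 (blue), and replicate 3 is the one above the line.

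**Figure D2:**
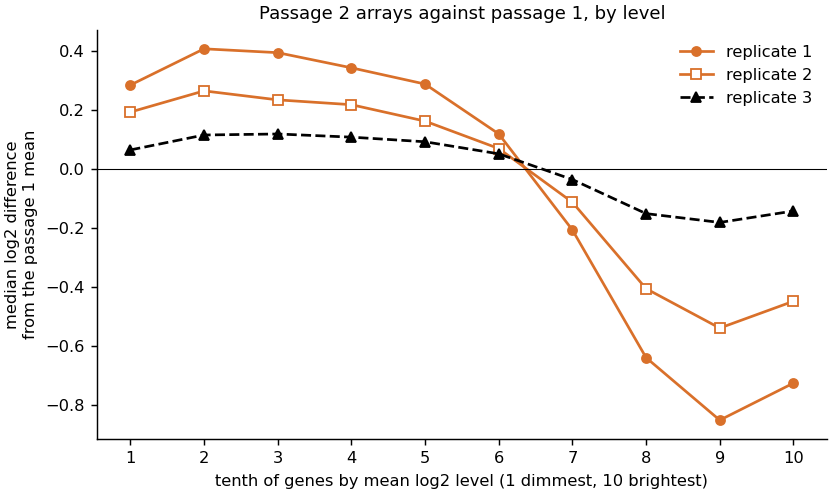
Median log2 difference of each passage 2 array from the passage 1 mean (vertical axis) over 10 classes of genes ordered by mean level (horizontal axis). Replicates 1 and 2 rise at the dim end and fall to -0.85 and -0.54 in class 9, where replicate 3 reads -0.18.

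A passage 1 array also stood apart. Replicate 3 of passage 1 lay between replicates 1 and 2 in 991 of the 1000 genes (99.1%) for which those differed at least 2-fold. Over the other 38 arrays of the series the same share ran from 7.29% to 80.9%. On the linear scale its position between replicate 2 (at 0) and replicate 1 (at 1) had a median of 0.60 over those genes, with 10th and 90th percentiles of 0.44 and 0.75. It thus added little spread of its own to the passage 1 group. Why it lay there, and whether passage 1 thus holds 3 independent mice, was not tested, and counts are also given without it.

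The added microRNA was checked by a probe set that the annotation assigns to Mir126a and to Egfl7. It read 8.48, 8.27 and 8.18 in the passage 1 mice and 7.98, 9.01 and 11.56 in the passage 2 mice, against 2.76 to 2.92 in AE9a at passage 1 and 2.85 to 2.90 at passage 2. All 6 mice with added miR-126 lay far above AE9a. The passages overlapped, with replicate 3 of passage 2 highest, and the difference of 1.21 ± 0.51 did not pass (adjusted p = 0.107 over all probe sets). Egfl7 by its own probe set read 0.36 ± 0.21 higher at passage 2 (adjusted p = 0.25).

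At passage 2, 906 genes were higher and 1575 lower than at passage 1. They passed an adjusted p of 0.05 in limma, over 22180 genes tested (4.08% higher, 7.1% lower, 11.2% together). Of the 2481 genes 1248 differed at least 2-fold, 298 higher and 950 lower. The values of the passages did not overlap in 7829 genes (35.3%), with passage 2 above in 18.7% and below in 16.6% of all genes, and 2256 of the genes that passed were among them. With replicate 3 as the only passage 2 mouse 232 genes were higher (1.05%) and 570 lower (2.57%). With the array SD as a covariate 236 were higher (1.06%) and 388 lower (1.75%). Without replicate 3 of passage 1 the counts were 191 higher (0.861%) and 759 lower (3.42%). In the main fit and in all 3 of these, 246 genes were lower and 9 higher. Below, these 3 are the other fits, and a named gene that passed in none of them is said to have lost its call. Each ± after a difference is its standard error, which rests on the spread pooled over all 13 groups.

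**Figure D3:**
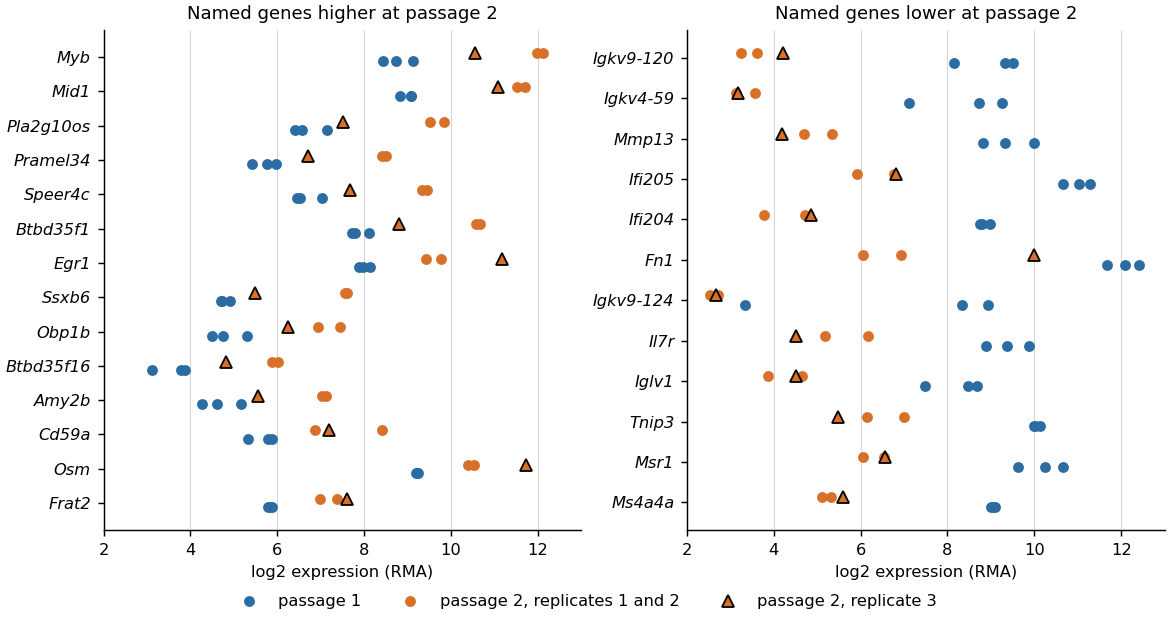
RMA log2 expression (horizontal axis) of the genes with the largest rises or widest gaps (left) and the largest falls (right), one point per mouse, with passage 1 in blue, passage 2 in orange and replicate 3 of passage 2 as a triangle. Fn1 in replicate 3 (9.98) stands well above the other passage 2 mice (6.06 and 6.94), as do Myb below them (10.55 against 12.11 and 11.99) and Egr1 above them (11.18 against 9.77 and 9.43).

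Most measured genes of NF-κB feedback and costimulation fell. NF-κB dimers are held in the cytoplasm by IκB proteins, and once freed they switch on inflammatory and costimulatory genes together with their own inhibitors. The list of these genes was put together after values of these data had been seen, so its direction is no independent evidence. Of its 18 measured members 12 fell and 0 rose, with a median of -1.79, against 7.1% of all genes that fell and a median over all genes of 0.06. The median was -2.05, -1.65 and -1.47 in passage 2 replicates 1, 2 and 3. The count was 11 with the covariate, 10 with replicate 3 alone and 12 without replicate 3 of passage 1.

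Among the inhibitors, Tnip3, a partner of the ubiquitin-editing enzyme A20, read 9.98, 10.13 and 10.01 at passage 1 and 6.14, 7.0 and 5.48 at passage 2. The passages were well apart, with a fall of 14.3-fold (-3.83 ± 0.50, adjusted p = 2.12e-05). Tnip1, another A20 partner, fell by 2.87 ± 0.41 from 9.91, 9.90 and 9.89 to 6.82, 7.31 and 6.97. Tnfaip3, which encodes A20 itself, read 10.79, 11.18 and 10.99 at passage 1 and 8.64, 9.12 and 9.73 at passage 2, without overlap and nearest in replicate 3. It fell by 1.83 ± 0.33 (adjusted p = 0.000709), and with replicate 3 alone its difference of -1.26 did not pass (adjusted p = 0.165). The IκB gene Nfkbie fell by 2.92 ± 0.46 and Nfkbia fell by 1.05 ± 0.24, Nfkbia from between 11.68 and 11.81 to between 10.67 and 10.75. Of the NF-κB subunits, Nfkb2 fell by 1.81 ± 0.31 and Relb fell by 1.41 ± 0.23, whereas Rel read -0.66 and did not pass. Targets that act at the cell surface fell as well. Cd40, the costimulatory receptor of antigen-presenting cells, read 9.13, 9.93 and 9.47 and then 5.96, 6.47 and 6.47 and fell by 3.21 ± 0.43 (adjusted p = 3.25e-05). Cd86, a ligand of CD28 on T cells, fell by 2.18 ± 0.43 and the adhesion molecule Icam1 fell by 2.24 ± 0.40, with no overlap between the passages in either. Traf1, an adaptor of TNF receptors, fell by 2.94 ± 0.49 and the mitochondrial superoxide dismutase Sod2 fell by 1.78 ± 0.29. Cd80, Birc3, Nfkbiz, Tnip2 and Ccrl2 read between -1.37 and -0.10 and, with Rel, make up the 6 members that did not pass.

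**Figure D4:**
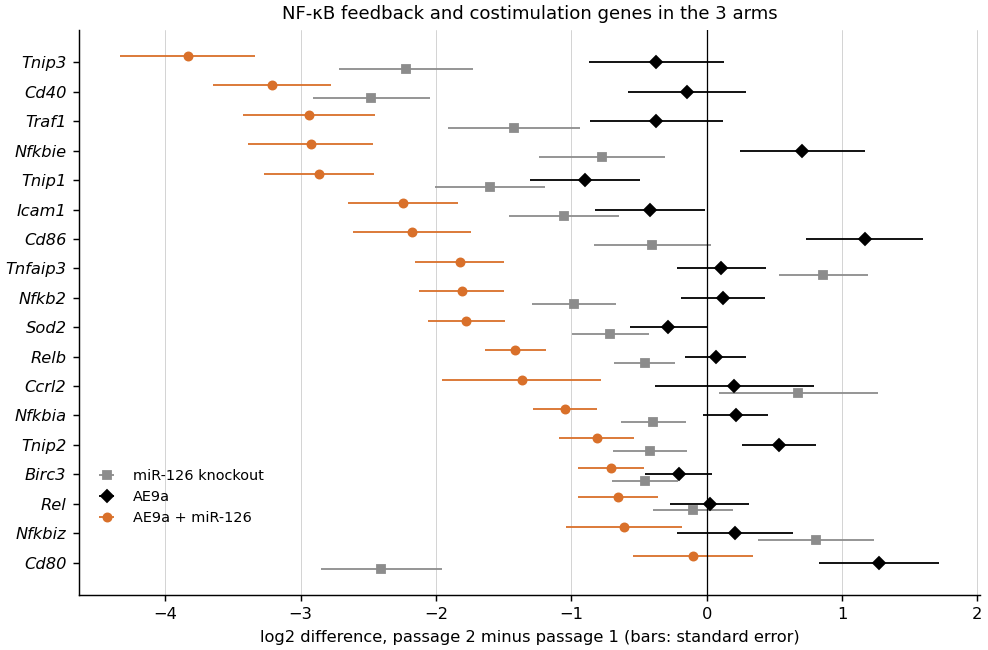
Log2 difference of passage 2 from passage 1 (horizontal axis, bars are standard errors) for the 18 measured NF-κB genes in AE9a with added miR-126 (orange circles), AE9a (black diamonds) and the miR-126 knockout (grey squares). All 18 circles lie left of 0, from Tnip3 at -3.83 to Cd80 at -0.10, while the diamonds lie on both sides of 0.

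In the test of the difference between arms, the change of 12 NF-κB genes lay below that in AE9a (3.31% of all genes). These were the genes that fell here, with Tnip2 (-1.35 ± 0.39, adjusted p = 0.0456) in place of Icam1 (-1.83 ± 0.57, adjusted p = 0.0629). In AE9a the median of the list was 0.09 with 0 members past the threshold in limma in either direction (1.07% of all genes rose there and 0.271% fell). There 3 members had an unadjusted p under 0.05, 2 of them higher. In the knockout the median was -0.58 with 4 lower and 0 higher (4.28% and 1.42% of all genes). Promoter sequence is shown because these genes moved together and a sequence bound by NF-κB is known. The 250 bases before each start were searched on both strands for GGG, then 3 bases of any kind, then TTCC. This includes the narrower pattern of GGG, 2 bases of any kind and TTTCC. The wider pattern stood in 6 of the 15 listed genes with a promoter entry, 5 of them among the 9 such genes that fell, and in 5.306% of 27025 genes. The narrower one stood in 4 of the 15 and in 1.654% of all genes. Since the list was made of genes tied to NF-κB, a share above that of all genes comes with the choice and is no independent evidence. The stretches around the match in the 5 genes that fell are printed 5′ to 3′ with every match in capitals (RefSeq, GRCm38.p6). They lie at chr19:46304696-46304736 (plus strand) for Nfkb2, chr12:55492648-55492706 (minus) for Nfkbia, chr17:45555564-45555633 (plus) for Nfkbie, chr10:19012014-19012083 (minus) for Tnfaip3 and chr11:54962959-54963028 (minus) for Tnip1.
Nfkb2: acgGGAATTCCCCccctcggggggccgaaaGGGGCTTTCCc
Nfkbia: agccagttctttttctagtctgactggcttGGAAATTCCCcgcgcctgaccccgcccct
Nfkbie: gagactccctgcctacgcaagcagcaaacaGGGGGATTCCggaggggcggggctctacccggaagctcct
Tnfaip3: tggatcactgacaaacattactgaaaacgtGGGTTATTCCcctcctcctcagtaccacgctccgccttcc
Tnip1: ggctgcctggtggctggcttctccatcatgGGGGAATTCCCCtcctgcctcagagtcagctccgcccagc
A match is a description of letters and shows no binding. In Nfkb2 and Tnip1 more than 1 match lies in the stretch, and in Tnip1 these overlap.

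Cytokine and protease genes of inflammation fell beside them. Mmp13, a collagenase, read 8.83, 10.001 and 9.33 at passage 1 and 4.69, 5.34 and 4.19 at passage 2. The gap was wide in every mouse and the fall was 25.1-fold (-4.65 ± 0.72, adjusted p = 0.000122). Il1a, which encodes interleukin 1 alpha, fell by 3.23 ± 0.83 from between 10.79 and 11.61 to between 6.92 and 8.89. Il1b (-2.39 ± 0.73), Il6 (-2.42 ± 0.65) and Tnf (-1.30 ± 0.43) fell as well. Il1b, at 8.29, 8.37 and 10.11 in passage 2, was highest in replicate 3, and none of Il1a, Il1b, Il6 and Tnf passed with replicate 3 alone (adjusted p from 0.248 to 0.343). Il1b, Il6 and Tnf lost their calls, with adjusted p from 0.0715 to 0.265 in the fits other than that one.

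These cytokine and protease genes stand on a list of 29 immediate early and inflammatory genes, of which 4 transcription factors of the immediate early response rose (4.08% of all genes rose) and 7 genes of inflammation and NF-κB feedback fell. The list median was -0.01, and -0.08, -0.42 and 0.46 in replicates 1, 2 and 3. Egr1, a zinc finger factor induced within minutes by growth signals, read 7.89, 8.13 and 7.98 and then 9.77, 9.43 and 11.18. The passages did not overlap, and the rise was 4.36-fold (2.12 ± 0.48, adjusted p = 0.00531). The AP-1 subunits Jun (0.98 ± 0.21), Fos (1.65 ± 0.52) and Fosb (1.56 ± 0.43) rose too. Each of Egr1, Jun, Fos and Fosb was highest in replicate 3 of passage 2. With replicate 3 alone 7 members were higher and 1 lower, with the covariate 5 higher and 3 lower, and without replicate 3 of passage 1 2 higher and 4 lower, where Fos did not pass (adjusted p = 0.101). Jund, another AP-1 subunit that is on no list, rose by 1.44 ± 0.30. Egr1, Jun and Fos read higher at passage 2 in the other arms too. The differences were 2.06, 1.15 and 2.31 in AE9a and 2.22, 1.55 and 3.40 in the knockout, and for none of them did the difference between arms pass (adjusted p from 0.577 to 0.959 against AE9a).

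Some genes of monocytes fell, and a few of tissue macrophages. Of 24 monocyte genes 8 fell and 0 rose (7.1% of all genes fell), with a median of -0.51 and per-mouse medians of -0.80, -0.78 and -0.89. Of 23 tissue macrophage genes 3 fell and 0 rose, with a median of -0.48. The counts of falls were 7 and 2 with replicate 3 alone, 4 and 2 with the covariate, and 6 and 2 without replicate 3 of passage 1. Vcan, the matrix proteoglycan versican of inflammatory monocytes, read 8.47, 9.09 and 8.67 and then 5.36, 5.23 and 5.21. All 3 passage 2 mice were alike and far below passage 1, a fall of 11.1-fold (-3.48 ± 0.54, adjusted p = 0.000145). Fn1, which encodes fibronectin, read 11.67, 12.40 and 12.09 and then 6.06, 6.94 and 9.98. It fell by 4.39 ± 0.59, with replicate 3 of passage 2 between the other mice of its group and passage 1. With replicate 3 alone the fall was 2.07 (adjusted p = 0.0292). Clec4a1, a C-type lectin (-2.65 ± 0.53), Csf1r, the receptor for the growth factor of macrophages (-1.81 ± 0.44), and Ctss, the protease cathepsin S (-1.38 ± 0.44), fell too. The others that fell were the lysozyme genes Lyz1 (-2.26 ± 0.60) and Lyz2 (-1.04 ± 0.31), which are near copies, and S100a4 (-1.74 ± 0.38), a calcium-binding protein. Lyz2 lost its call (adjusted p from 0.0794 to 0.697).

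Msr1, a scavenger receptor of macrophages, read 9.61, 10.66 and 10.24 and then 6.53, 6.05 and 6.56. The passages did not overlap (-3.79 ± 0.57, adjusted p = 0.000102). Gpnmb (-2.87 ± 0.67) and Trem2 (-1.67 ± 0.49), membrane proteins of lipid-laden macrophages, fell as well, whereas Adgre1, which encodes the marker F4/80, read 9.20 in replicate 3 of passage 2 against 9.05 to 9.36 at passage 1 and did not pass. Trem2 lost its call (adjusted p from 0.0881 to 0.381). Ms4a4a, a membrane protein of the MS4A family, read 9.10, 9.01 and 9.05 and then 5.32, 5.11 and 5.59 (-3.71 ± 0.53, adjusted p = 4.84e-05). The change in AE9a ran the other way for the monocyte list, with a median of 1.01, 8 members higher (1.07% of all genes) and 0 lower. For 11 of the 24 monocyte genes and 7 of the 23 macrophage genes the change lay below that in AE9a in the test of the difference (3.31% of all genes). The widest of these were Vcan (-6.01 ± 0.77), Fn1 (-5.93 ± 0.83) and Clec4a1 (-5.53).

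The Ifi200 family is interferon-inducible and encodes proteins with HIN domains, several of which bind DNA. This family list too was put together after values had been seen. The list does not hold every member. Mndal, a member left off it, fell by 1.97 ± 0.40 (adjusted p = 0.00219). Of the 9 measured genes on the list 5 fell and 0 rose beside 7.1% of all genes that fell. Their median was -2.18 (-1.06 with the covariate). The count of falls was 3 with the covariate, 5 with replicate 3 alone and 3 without replicate 3 of passage 1. The 3 beside Ifi204 and Ifi205 were Ifi202b (-2.90), Ifi207 (-2.18) and Ifi209 (-2.23), while Aim2, a sensor of cytosolic DNA, read -0.10. Ifi204 read 8.76, 8.99 and 8.79 and then 3.77, 4.72 and 4.86, and Ifi205 10.66, 11.29 and 11.03 and then 6.76, 5.92 and 6.81. Both were far apart between the passages, with falls of 21.0-fold and 22.6-fold (-4.40 ± 0.55 and -4.50 ± 0.62, adjusted p = 1.44e-05 and 3.81e-05). Since these genes are close copies of each other, their probes may share signal. Of 24 genes of the type I interferon response 1 fell, Oasl1 (-1.92 ± 0.58, adjusted p = 0.0321), a share below the 7.1% of all genes, and the list median was -0.41. Of 13 guanylate binding proteins and related GTPases, a list likewise made after values were seen, 2 fell, Gbp5 (-3.21 ± 0.47) and Gbp7 (-1.29 ± 0.41). Oasl1 and Gbp7 lost their calls (adjusted p from 0.0809 to 0.264 and from 0.0681 to 0.35). In the knockout 15 of the 24 interferon genes fell, with a median of -1.69, beside 4.28% of all genes. Of the 9 measured genes on the Ifi200 list 5 fell there, with a median of -2.50.

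Of all genes tested, immunoglobulin genes gave the 2 deepest falls, Igkv9-120 and Igkv4-59. Their list was made after values were seen, and of 22 measured genes 17 fell and 0 rose (7.1% of all genes fell), with a median of -2.63. The count of falls was 16 with the covariate, 11 with replicate 3 alone and 13 without replicate 3 of passage 1. Igkv9-120, a kappa light chain variable gene, read 9.51, 8.16 and 9.33 and then 3.25, 3.61 and 4.22, a fall of 39.6-fold (-5.31 ± 0.81, adjusted p = 0.00011). Igkv4-59 fell by 5.08 ± 0.56 and Iglv1, of the lambda light chain, fell by 3.86 ± 0.48. Passage 1 was uneven here. Igkv9-124 read 8.93, 3.33 and 8.35 at passage 1 and 2.54, 2.71 and 2.66 at passage 2, and the mean over the 22 genes was 9.02, 6.47 and 8.53 at passage 1, lowest in replicate 2, and 5.27, 5.34 and 5.02 at passage 2. Variable genes of the same family, such as Igkv9-120 and Igkv9-124, are close copies, so the probes of one may read another. In AE9a 12 of the same genes were lower at passage 2 (0.271% of all genes), with a list median of -2.08, and in the knockout 6 (4.28% of all genes), with a median of -1.48. For 0 of the 22 genes did the change differ from that in AE9a in limma (3 below at an unadjusted p under 0.05).

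Jchain, which joins antibody chains in plasma cells, fell by 3.58 ± 0.48 and Irf4, a transcription factor of plasma cells and of macrophages, fell by 2.36 ± 0.40. On the plasma cell list, made after values were seen, 5 of 14 fell (7.1% of all genes fell), the others being Sdc1 (-0.68), Tnfrsf13b (-0.71) and Creld2 (-1.10). The count was 3 with the covariate, 4 with replicate 3 alone and 3 without replicate 3 of passage 1. Of 17 B cell genes 2 fell, Blnk (-1.88 ± 0.41) and Cd79a (-1.81 ± 0.49), with a median of -0.75. That count was 0 with the covariate, 0 with replicate 3 alone and 1 without replicate 3 of passage 1, and Cd79a lost its call (adjusted p from 0.097 to 0.125). The B cell list averaged 6.45, 5.07 and 6.08 in the passage 1 mice and 5.31, 5.41 and 5.04 in those of passage 2, so replicate 2 of passage 1 lay among the passage 2 mice. Of 17 MHC class II and dendritic genes 4 fell, among them H2-DMa (-1.54 ± 0.37), which helps load peptide onto class II, and Cd83 (-1.55 ± 0.48). That count was 2 with the covariate, 1 with replicate 3 alone and 2 without replicate 3 of passage 1, and Cd83 and H2-Aa lost their calls (adjusted p from 0.102 to 0.259 and from 0.0732 to 0.0928). H2-Aa, a class II chain, read 9.88, 5.97 and 9.24 and then 5.62, 6.39 and 5.43, so that here also replicate 2 of passage 1 lay within the passage 2 range. Ccr7, the chemokine receptor of migrating dendritic and T cells, fell without overlap (-1.38 ± 0.31).

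On the T and NK cell list of 21 genes 2 fell, Il7r and Ccl5, and 1 rose, Trat1 (0.83 ± 0.27), beside 11.2% of all genes that passed either way. Trat1 lost its call (adjusted p from 0.117 to 0.601). Il7r, the receptor chain for interleukin 7, read 8.89, 9.87 and 9.38 and then 6.16, 5.17 and 4.51 (-4.09 ± 0.77, adjusted p = 0.00114). Ccl5, a chemokine of T cells and macrophages, fell by 2.27 ± 0.49. The defining T cell genes read low at both passages, and Cd4, Cd8a and Cd28 differed by -0.04, -0.19 and -0.06. The list mean was 5.50 to 5.92 at passage 1 and 5.21 to 5.60 at passage 2. Erythroid genes averaged 5.24 to 5.34 and then 5.49 to 5.62, with 0 of 16 past the threshold in limma (1 higher at an unadjusted p under 0.05), and megakaryocyte genes 5.35 to 5.59 and then 5.67 to 5.92, with 1 of 12, Itga2b (1.10 ± 0.30). Mast cell, basophil and eosinophil genes averaged 5.15 to 5.43 and then 5.49 to 5.73, with 1 of 18, Csf2rb2 (-1.47 ± 0.39), which lost its call (adjusted p from 0.0534 to 0.759). Stromal and endothelial genes averaged 5.36 to 5.41 and then 5.56 to 5.65, with Col3a1 (0.61 ± 0.17) the 1 of 20 that rose, which lost its call (adjusted p from 0.0676 to 0.207). Genes of unrelated tissues, such as Alb of liver, read higher by a median of 0.24 with 0 of 26 past the threshold in limma (6 higher at an unadjusted p under 0.05), and by 0.44, 0.24 and 0.09 in passage 2 replicates 1 to 3.

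**Figure D5:**
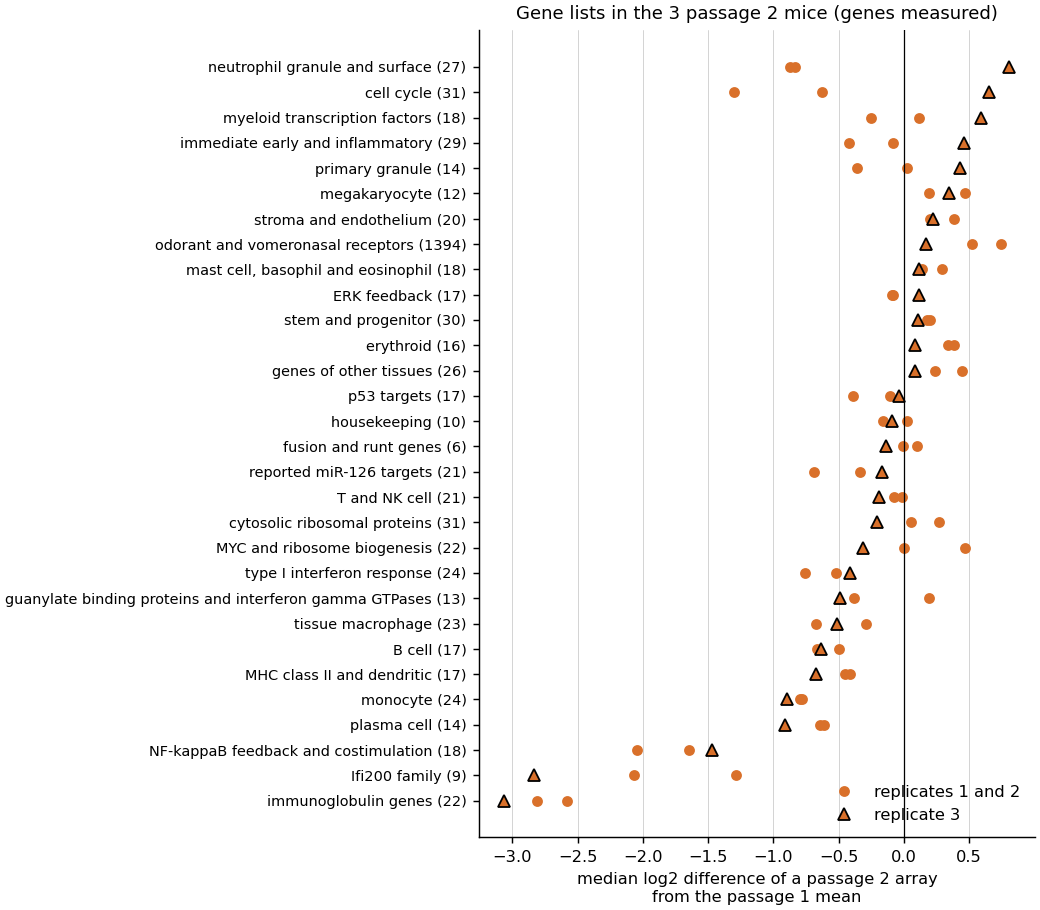
Median log2 difference of each passage 2 array from the passage 1 mean (horizontal axis) for each gene list, with the number of measured genes in brackets; circles are replicates 1 and 2, triangles replicate 3. The NF-κB, Ifi200 and immunoglobulin lists lie below -1 in all 3 mice, whereas the neutrophil and cell cycle lists lie below 0 in replicates 1 and 2 and at 0.81 and 0.65 in replicate 3.

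Among the genes that rose, Myb rose furthest. Myb is a transcription factor that keeps blood progenitors and many leukaemias immature. It read 8.43, 9.13 and 8.75 at passage 1 and 12.11, 11.99 and 10.55 at passage 2. The passages did not overlap, with replicate 3 lowest of its group, and the rise was 6.89-fold (2.78 ± 0.41, adjusted p = 6.89e-05). It was 2.61 with the covariate (adjusted p = 0.00129) and 1.78 with replicate 3 alone, which did not pass (adjusted p = 0.0738). In AE9a Myb read 0.28 lower at passage 2, and the difference between the arms was 3.06 ± 0.58 (adjusted p = 0.00229). In the knockout it read 1.90 higher, and the difference from that arm did not pass (0.88, adjusted p = 0.804).

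Mid1, a ubiquitin ligase bound to microtubules, read 9.08, 8.82 and 9.08 and then 11.51, 11.70 and 11.08 (2.44 ± 0.41, adjusted p = 0.000348). Its rise was 2.39 with the covariate, which passed, and 2.08 with replicate 3 alone, which did not pass. Frat2, an inhibitor of the kinase GSK3 in Wnt signalling, read 5.78, 5.87 and 5.83 and then 6.99, 7.38 and 7.61. It was apart in every mouse and highest in replicate 3 (1.5 ± 0.26, adjusted p = 0.000514), and it passed with the covariate, with replicate 3 alone and without replicate 3 of passage 1. The other 8 genes higher in all 4 fits were Egr1, Jun and Jund, named above, and Capn3, Glod5, Pik3ip1, Tprg and Hmgb3, which were named after their values were seen. Of these, Pik3ip1, an inhibitor of PI3 kinase, rose by 1.00 ± 0.23 and Hmgb3, a chromatin protein of blood progenitors, by 0.81 ± 0.16. Osm, which encodes the cytokine oncostatin M, read 9.19 to 9.23 and then 10.40, 10.53 and 11.72 (1.67 ± 0.56, adjusted p = 0.0484). Cd59a, a complement inhibitor, rose by 1.82 ± 0.47 and lost its call (adjusted p from 0.0709 to 0.267). Osm passed with replicate 3 alone, not with the covariate (adjusted p = 0.114) or without replicate 3 of passage 1 (0.112).

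The other named rises were of another kind. Pramel34, Speer4c, Btbd35f1, Btbd35f16 and Ssxb6 belong to mouse families of many near-identical copies known mainly from testis and oocytes, so the gene read by their probes is uncertain. Obp1b encodes an odorant-binding protein and Amy2b a pancreatic amylase. These 7 genes and Pla2g10os rose by 1.88 to 2.24, and in each of them replicate 3 of passage 2 lay lowest of its group. Ssxb6 read 4.70, 4.91 and 4.73 and then 7.61, 7.57 and 5.50, close to passage 1 in replicate 3. None of the 8 passed with the covariate (adjusted p from 0.0891 to 0.69) or with replicate 3 alone (0.0557 to 0.631), and Pla2g10os, Speer4c, Btbd35f1 and Obp1b lost their calls. The naming rule passed over 408 further rises of predicted genes, small RNAs and receptors of smell and pheromones. Of 1394 such receptors 200 rose and 1 fell, beside 4.08% and 7.1% of all genes. Their median was 0.48, and 0.74, 0.52 and 0.17 in replicates 1, 2 and 3. With the covariate 2 rose, beside 1.06% of all genes. Without replicate 3 of passage 1 the count was 35, beside 0.861%.

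Of 30 stem and progenitor genes measured 2 rose, Myb and Meis1, and 1 fell, Tcf4, with a median of 0.14. Beside these counts 4.08% of all genes rose and 7.1% fell. Meis1, a homeobox gene of stem cells and leukaemia, read 6.12, 4.89 and 5.27 and then 6.19, 5.73 and 7.17 (0.93 ± 0.27, adjusted p = 0.0246). Its passages overlapped, since replicate 1 of passage 1 lay above replicate 2 of passage 2. Kit, Cd34 and Flt3 differed by 0.18, -0.04 and 0.13 and did not pass. Tcf4 fell by 1.01 ± 0.28. Of the other fits Meis1 and Tcf4 passed with replicate 3 alone.

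Myc, the growth-promoting transcription factor, read 7.0, 6.98 and 6.98 and then 8.20, 8.73 and 7.80, a rise of 1.25 ± 0.34 (adjusted p = 0.0169) without overlap. Of 22 MYC and ribosome biogenesis genes Myc and Ppan, a ribosome assembly factor (1.13 ± 0.28), were the 2 that rose, and the median was 0.14 (-0.31 in replicate 3). Of 31 ribosomal protein genes 1 rose, Rps18 (1.13 ± 0.35), which lost its call (adjusted p from 0.101 to 0.671). For both lists the share to compare is the 4.08% of all genes that rose. Myc passed with the covariate, not with replicate 3 alone (adjusted p = 0.0912) or without replicate 3 of passage 1 (0.0565). Runx1t1, the mouse gene for ETO, read 5.92, 6.01 and 6.03 and then 6.47, 6.57 and 6.75 (0.61 ± 0.20, adjusted p = 0.0431), and lost its call (adjusted p from 0.085 to 0.191). Whether the probe set also reads the AE9a transgene was not tested. Runx1 read -0.54 ± 0.25 and did not pass (adjusted p = 0.138).

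Of 21 genes reported as miR-126 targets 4 fell and 0 rose, with a median of -0.42 (-0.69, -0.34 and -0.17 in the passage 2 mice). The share of 4 in 21 stands beside the 7.1% of all genes that fell. These targets were bright, with a median passage 1 level of 8.17. In class 9 of the level classes above, with mean levels from 7.55 to 8.55, 457 of 2218 genes fell. The medians of that class were -0.85, -0.54 and -0.18 in passage 2 replicates 1, 2 and 3. Errfi1, an inhibitor of the EGF receptor, read 10.24, 10.94 and 10.53 and then 9.34, 9.38 and 8.20, without overlap (-1.60 ± 0.52, adjusted p = 0.0439). Crk, a signalling adaptor (-0.99 ± 0.28), Tsc1, a brake on mTOR (-0.89 ± 0.23), and the phosphatase Ptpn9 (-0.68 ± 0.20) were the others, and these 3 lost their calls. Spred1, an inhibitor of the Ras and ERK pathway, read -1.01 ± 0.37 and did not pass (adjusted p = 0.0677), nor did Fzd7, a Wnt receptor (-0.45). With the covariate 0 of the 21 fell (4 at an unadjusted p under 0.05) and 1 rose, Pik3r2 (0.66). Without replicate 3 of passage 1 none passed in limma in either direction (7 lower at an unadjusted p under 0.05), and with replicate 3 alone 3 fell, Errfi1 (-2.37, adjusted p = 0.0058), Spred1 (-1.77) and Adam9 (-1.26).

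Neutrophil and cell cycle genes divided the passage 2 mice. The median over 27 neutrophil genes was -0.84 and -0.87 in replicates 1 and 2 and 0.81 in replicate 3. Ly6g, the surface marker of neutrophils, read 10.83, 7.55 and 10.52 at passage 1 and 6.04, 6.96 and 10.15 at passage 2, so replicate 2 of passage 1 was low as well, and it did not pass (adjusted p = 0.163). Itgam, which encodes CD11b, was the 1 that fell (-1.42 ± 0.47, adjusted p = 0.0474). It read 8.12, 8.56 and 10.86 at passage 2, and in replicate 3 alone it lay 0.27 above passage 1. It lost its call (adjusted p from 0.124 to 0.827). The median over 31 cell cycle genes was -1.30, -0.63 and 0.65, and 0 of them passed in limma (1 lower at an unadjusted p under 0.05). Mki67, the proliferation marker Ki-67, read 10.10, 10.26 and 10.17 and then 8.46, 9.07 and 10.70. Of 14 primary granule genes Ctsc fell (-1.58 ± 0.34) and its inhibitor Cst7 rose (1.75 ± 0.42), beside 7.1% and 4.08% of all genes. With the covariate Ctsc did not pass (-1.09, adjusted p = 0.0682). Cst7 read 0.76 above the passage 1 mean in replicate 3 of passage 2 and did not pass with that mouse alone.

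Of the other lists, 18 myeloid transcription factors held 1 higher, Egr1, and 1 lower, Spi1, which encodes PU.1 (-0.81 ± 0.26) and lost its call (adjusted p from 0.102 to 0.506), and 17 ERK feedback genes 2 higher, Egr1 and Myc, and 1 lower, Errfi1. Beside these counts 4.08% of all genes rose and 7.1% fell. The median over the transcription factors was 0.11, -0.26 and 0.59 in passage 2 replicates 1, 2 and 3. With the covariate 3 transcription factors, 2 ERK feedback genes and 2 p53 targets were higher, beside 1.06% of all genes, and 1 p53 target lower. Of 17 p53 targets 1 fell in the main fit. That was Fas, the death receptor, which read 10.02, 9.36 and 9.79 and then 6.71, 7.18 and 7.65 (-2.54 ± 0.46, adjusted p = 0.000709). In replicate 3 of passage 2 its difference from the passage 1 mean was -2.08, and Fas did not pass with that mouse alone. Of 10 housekeeping genes 0 passed in limma and 0 had an unadjusted p under 0.05, with a median of -0.07.

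The change was tested against that in the other arms, which share no array with it. The change differed from that in AE9a for 891 genes, 157 above (0.708%) and 734 below (3.31%). In AE9a itself 238 genes were higher and 60 lower at passage 2, and across the 22180 genes the changes of the arms had a Pearson r of -0.073. Of the genes that passed in both arms 35 moved the same way and 32 the opposite way. Of the named genes Ms4a4a lay furthest below AE9a (-6.11 ± 0.75, adjusted p = 4.01e-05), where it rose from 7.71 ± 0.77 (SD, n = 3) to 10.11 ± 0.22 while it fell here. Ifi204 (-5.92 ± 0.78) and Ms4a8a (-5.55 ± 0.88) lay nearly as far below. Pramel34, Btbd35f16, Ssxb6 and Amy2b lay above AE9a by 2.47 to 2.91.

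Against the knockout 6 genes differed (0.0271%). In the knockout 314 genes were higher and 949 lower, Pearson r across genes was 0.646, and 552 genes passed in both arms in the same direction, 527 of them lower. These 552 are 22.2% of the genes that passed here and 43.7% of those in the knockout. The array SD in the knockout was 1.96 to 2.01 at passage 1 and 1.96, 1.85 and 1.78 at passage 2. In AE9a it was 1.86 to 2.00 and then 1.97 to 2.01. What part of the likeness to the knockout comes with the narrower spread was not tested. Cyth3, an exchange factor for ARF GTPases, read 7.20, 7.24 and 7.14 and then 5.47, 5.25 and 6.02 here, without overlap, and rose by 1.07 in the knockout (adjusted p = 0.018). The difference was -2.69 ± 0.39 (adjusted p = 0.00277), and against AE9a it was -2.50 ± 0.39. Arhgef12 and Tnfaip3 lay below the knockout (-2.70 and -2.69) and below AE9a (-1.89 and -1.93). Mx1, an antiviral GTPase, differed by 2.83 ± 0.52. Most of that lay in the knockout, where it went from 7.34 ± 1.00 to 4.15 ± 0.07 (SD, n = 3), while here it read 4.55, 4.45 and 4.20 and then 4.26, 4.01 and 3.85. Ifi44l (1.31) and Creb3l1 (-2.01) likewise hardly differed between the passages here.

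The levels at later passages of the same arm stand beside these values, though they were measured on arrays of which 5 of 6 had an SD under 1.8. Myb read 12.16 ± 0.21 (SD, n = 3) at passage 3 and 12.17 ± 0.20 at passage 4, close to replicates 1 and 2 of passage 2 and above replicate 3. Fn1 read 6.05 ± 0.36 and 6.93 ± 0.96, again near replicates 1 and 2. Vcan (5.04 and 5.10), Tnip3 (5.48 and 5.62) and Ifi204 (3.42 and 3.39) lay below the mean of passage 2, and Egr1 read 9.68 ± 1.5 and 10.31 ± 0.35. Meis1 read 5.54 and 4.87, below all 3 passage 2 mice. In the normal controls Myb read 9.95 ± 0.52, Tnip3 5.78 ± 0.59, Mmp13 4.16 ± 0.21 and Ifi205 6.65 ± 0.25, while Fn1 read 11.55 ± 0.25, Vcan 7.26 ± 0.90, Ifi204 7.51 ± 0.44, Il7r 8.46 ± 0.68 and Ms4a4a 7.90 ± 1.38. The control level was nearer to the passage 2 mean for Tnip3, Mmp13 and Ifi205 and nearer to the passage 1 mean for Fn1, Vcan, Ifi204, Il7r and Ms4a4a.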

How the data were processed

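Gene expression in 39 mouse bone marrow samples was measured on Affymetrix Mouse Gene 2.0 ST arrays. The deposited values were log2 expression per probe set, made by the authors with RMA in Partek 6.0, per the submitters' processing notes. No filter or background setting is named there. Each precision below is limited by the number of arrays.

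Of 27037 probe sets, 23521 had 1 gene symbol in GEO's platform annotation, 1814 several and 1702 none. For genes with several probe sets the one with the highest mean was kept, which left 22180 genes. limma 3.58.1 in R 4.3.3 fitted all 39 arrays with 13 group means and no block, with empirical Bayes variances, and p-values were adjusted by Benjamini-Hochberg over all genes (threshold 0.05, no minimum fold). The change was also tested against that in AE9a and in the knockout as a difference of differences. The fits were tested on simulated data.

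Named genes were the 12 largest rises and falls that passed without overlap, the 6 with the widest gap in each direction, the 5 furthest per direction for each difference between arms, up to 4 per list, and Errfi1, Spred1, Fzd7, Egfl7, Runx1, Runx1t1, Myb, Myc and the Mir126a probe set at any value. The rule skipped predicted genes, small RNAs, receptors of smell and pheromones, and pseudogenes of ribosomal proteins. Members, the 24 lists and the lists added later were chosen with earlier results of these data known. Of 516 listed symbols 468 were measured.

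The alternatives were a fit on only the groups compared, a replicate block, a trended robust prior, brighter genes, every probe set, array weights, quantile and loess normalization, the array SD as a covariate, a 2-fold minimum, leaving out each array, and leaving out arrays with an SD under 1.8.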

Additional observations from a re-analysis of the deposited data

Results flagged for a closer look

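The change from passage 1 to passage 2 differed between arms for these named genes, by limma's test of the difference of differences with Benjamini-Hochberg adjustment over all genes. Each value is the log2 change with added miR-126 minus that in the other arm.

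Against AE9a the change lay above for 6 genes. The value was 3.06 for Myb (adjusted p = 0.00229), 2.91 for Amy2b, 2.82 for Pramel34, 2.69 for Ssxb6, 2.47 for Btbd35f16 and 1.27 for Frat2 (adjusted p = 0.0472). Of these, Amy2b, Pramel34, Ssxb6 and Btbd35f16 had their high values in replicates 1 and 2 of passage 2, the arrays of low spread. Myb too read higher in those arrays (12.11 and 11.99) than in replicate 3 of passage 2 (10.55), which still lay above every passage 1 mouse.

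For macrophage and monocyte genes the change lay below AE9a. The value was -6.11 for Ms4a4a, -6.01 for Vcan, -5.93 for Fn1, -5.55 for Ms4a8a and -5.39 for Msr1 (adjusted p = 0.000292). It was -5.92 for Ifi204 and -4.67 for Ifi205, of the Ifi200 family. The collagenase gene Mmp13 gave -4.85, the cytokine receptor gene Il7r -4.80 and the NF-κB feedback gene Tnip3 -3.46 (adjusted p = 0.00442).

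Arhgef12, Tnfaip3 and Cyth3 lay below both other arms. Against AE9a the values were -1.89, -1.93 and -2.50, and against the knockout -2.70, -2.69 and -2.69. Creb3l1 lay below the knockout by -2.01, and Mx1 and Ifi44l lay above it by 2.83 and 1.31 (adjusted p = 0.029 and 0.0257).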

How the results depend on the processing

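Of 22180 genes, 2481 differed between the passages, 891 differed in change from AE9a and 6 from the knockout; counts under other settings are given in that order. With only the groups compared they were 1111, 2310 and 0 (limma; 1690 genes had an unadjusted p under 0.05 in the last). Array weights gave 12528, 9471 and 2968, quantile normalization 1265, 415 and 19, cyclic loess 1589, 510 and 17, and the fit with each array's SD as covariate 624, 277 and 16. Leaving out the arrays of low spread gave 802, 915 and 16, and 508 of the 802 were among the 2481. A 2-fold minimum gave 1248 for the passages, and every probe set gave 12 for the knockout. Leaving out 1 array gave 512 to 5171, 292 to 2415 and 1 to 41, with the highest count each time without passage 2 replicate 3. For the passages the counts were 852 without passage 1 replicate 1, 1626 without its replicate 2, 950 without its replicate 3, 512 without passage 2 replicate 1 and 1211 without its replicate 2. For AE9a the other counts beyond 1.5 times were 329 and 292 without replicate 1 of AE9a passage 1 and of AE9a passage 2, 578 without replicate 3 of AE9a passage 2, and 473, 471 and 407 without passage 1 replicates 2 and 3 and passage 2 replicate 1. For the knockout, 1 gene passed without passage 1 replicate 3 or passage 2 replicate 1, 10 without passage 1 replicate 2 and 3 without passage 2 replicate 2. Without each of knockout passage 1 replicates 1, 2 and 3 it was 3, 2 and 31, and without knockout passage 2 replicates 2 and 3 it was 16 and 21. Apart from the covariate, the 2-fold minimum and the omissions, the cause of these shifts was not tested. Replicate numbers were not shown to pair the samples (correlations of same-numbered deviations -0.32, 0.32 and 0.10), and the replicate block gave 2208, 761 and 8. Leaving out immunoglobulin and receptor genes, chosen after seeing the data, gave 2245, 871 and 6. Of 63 named genes that passed, 32 no longer did with the covariate, 25 without passage 1 replicate 3 and 30 without passage 2 replicate 1. Without the arrays of low spread, which leaves 1 passage 2 mouse, Itgam alone reversed, to 0.27. With 3 mice a group the median standard error was 0.222 on the log2 scale, which limits what could be detected.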
